A study of Mus musculus with 16 samples.

Results

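Regions of chromatin that were listed as accessible in fasting and not in fed mice were mostly seen in 1 tissue (277745 regions), and those described here are the small set that recurred in 4 or more. Accessibility was measured by ATAC-seq, which marks DNA that the Tn5 transposase can reach, in male C57BL/6 mice. The 8 tissues were heart, muscle, white and brown adipose, liver, kidney, lung and spleen. Mice of the fed group had free access to chow and those of the fasting group were fasted for a day. Tissue of several mice was pooled before sequencing, so each of the 16 combinations of tissue and state was read once, without replicates, and the 8 tissues of a state came from the same animals. The labels name no transgene, drug or age.

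Regions whose deposited -log10 q (column 9 of each peak list) was 2 or more in any library were merged where they shared 1 bp, which gave 760105 merged regions. A tissue was called fasting-only at a merged region when its fasting library had such a region there and its fed list had no peak of any strength there. The 875 members were chosen by these measured values, as the merged regions that were fasting-only in 4 or more of the 8 tissues. They made up 0.115% of all merged regions and 1.02% of the 85848 merged regions that were in the fasting set of 4 or more tissues. Because the rule used the fasting and fed lists themselves, the levels of the members in these lists are given as a description, with no test. The mirror rule, with fed and fasting exchanged, gave 771 regions, and no merged region met both rules.

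An accessible region away from a gene start is often an enhancer, a stretch of DNA where transcription factors bind and act on a gene nearby. Fasting lowers insulin and raises glucagon and glucocorticoids. Low insulin lets FOXO factors enter the nucleus, and glucocorticoids act through their receptor, which binds mostly at sites that are already accessible or that it opens together with other factors. Both routes act in many tissues at once, on genes of protein breakdown, glucose sparing and restraint of growth signalling.

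The 6 sequences below come from members that the results turn on. The first 3 have the highest mean fasting rank among the members that were fasting-only in 6 tissues and lie outside exons. The last 3 hold the highest mean fasting rank of all members. Each runs 100 bases to either side of the summit of the strongest fasting region, on the plus strand of GRCm38 and 5′ to 3′, read from the RefSeq assembly of that build. Capitals mark letters of the 17 motifs that were searched for on both strands.
Zbtb16 intron, chr9:48657850-48658050: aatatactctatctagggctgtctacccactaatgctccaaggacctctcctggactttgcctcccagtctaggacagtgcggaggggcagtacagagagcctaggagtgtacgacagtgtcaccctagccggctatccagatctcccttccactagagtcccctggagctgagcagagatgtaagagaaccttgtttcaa
Pde2a intron, chr7:101453863-101454063: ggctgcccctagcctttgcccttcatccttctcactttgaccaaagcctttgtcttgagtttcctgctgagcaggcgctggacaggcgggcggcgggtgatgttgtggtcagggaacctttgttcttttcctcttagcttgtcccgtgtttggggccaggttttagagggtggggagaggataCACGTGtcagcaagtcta
Trp53inp1 intergenic, chr4:11175660-11175860: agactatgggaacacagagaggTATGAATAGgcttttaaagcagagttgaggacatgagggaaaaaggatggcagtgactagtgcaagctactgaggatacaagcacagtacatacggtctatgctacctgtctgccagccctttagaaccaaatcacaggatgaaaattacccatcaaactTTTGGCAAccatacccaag
Nfkbia intergenic, chr12:55488906-55489106: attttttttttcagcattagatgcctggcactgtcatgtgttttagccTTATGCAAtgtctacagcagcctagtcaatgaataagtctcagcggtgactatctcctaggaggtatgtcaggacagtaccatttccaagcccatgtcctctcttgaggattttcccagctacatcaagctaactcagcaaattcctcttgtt
Txnip, intron of Gm15441, chr3:96563160-96563360: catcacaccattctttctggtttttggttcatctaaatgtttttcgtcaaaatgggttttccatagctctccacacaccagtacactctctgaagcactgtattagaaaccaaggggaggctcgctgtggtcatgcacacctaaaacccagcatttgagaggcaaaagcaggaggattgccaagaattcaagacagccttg
Ddit4 intergenic, chr10:59947689-59947889: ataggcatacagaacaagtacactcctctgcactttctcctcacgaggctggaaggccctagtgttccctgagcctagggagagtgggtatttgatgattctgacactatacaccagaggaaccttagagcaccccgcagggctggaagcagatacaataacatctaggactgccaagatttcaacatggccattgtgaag
The capitals are a CLOCK type E-box (CACGTG) in the Pde2a window, a MEF2 match (CTANNNNTA) and a C/EBP match (TTGCNNAA) in the Trp53inp1 window, and a C/EBP match in the Nfkbia window. The windows of Zbtb16, Txnip and Ddit4 held none of the 17 sets of letters.

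The 3 highest mean fasting ranks lay next to Nfkbia, Txnip and Ddit4, genes known to restrain inflammation, glucose uptake and growth signalling. A rank here is the percentile of a peak by p within its own list, where 100 is the strongest and 0 an unlisted peak, and the mean fasting rank is taken over the tissues where the member was fasting-only. The lowest rank that a column 9 of 2 or more left was 31.1 in fasting heart, 30.6 in brown adipose, 23.5 in liver and 16.7 in white adipose. It was at most 0.0016 in fasting muscle, spleen, lung and kidney. Ranks of different tissues are therefore not on the same scale, and the mean fasting rank depends on the tissues it is taken over. The leading member, 2804 bp downstream of an annotated start of Nfkbia (the inhibitor of NF-kappa-B), ranked 87.3 in fasting heart, 86.3 in white adipose, 81.4 in brown adipose and 66.1 in liver. Its only fed peak was in spleen, at rank 19.4, where the fasting list had none. No peak was listed there in either state of muscle, lung or kidney. In these bulk tissues a shift in cell types and a shift of accessibility within cells cannot be told apart, here and below.

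The second lies 3206 bp downstream of an annotated internal start of Txnip and past the end of that gene, in an intron of the noncoding gene Gm15441. Txnip encodes a protein that holds back glucose uptake. The region ranked 92.5 in fasting heart, 81.4 in white adipose, 80.9 in brown adipose and 58.8 in spleen, and no fed peak was listed in these tissues. In muscle it was listed in both states, at rank 74.3 in fed and 69.5 in fasting, and in lung at 39.7 and 79.9. Kidney went the other way, with a fed peak at rank 37.6 and none in fasting, and liver had no peak in either state.

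A pair of members lay downstream of Ddit4, which encodes REDD1, an inhibitor of mTORC1. They nearly adjoin (chr10:59947609-59948419 and chr10:59948470-59949632), so they are not independent of each other. The first, 4045 bp from the start, was listed in 4 libraries alone, all fasting, and ranked 85.6 in white adipose, 79.8 in heart, 75.0 in muscle and 68.8 in brown adipose. In white adipose 166 tags stood at its summit against 60.8 expected, and in muscle 479 against 240.1. The second, 2668 bp from the start, ranked 86.5 in fasting white adipose, 85.9 in heart, 74.6 in brown adipose and 24.5 in liver. Muscle listed it in fed and fasting at ranks 59.4 and 85.7, and kidney at 61.5 and 68.4. Both Ddit4 members were therefore fasting-only in brown adipose, white adipose and heart.

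The other members among the 10 of highest rank were next to Tec, Cnst, Josd1, Ip6k2, Arhgap26 and Nfix, with mean fasting ranks from 64.2 to 70.7. The Tec member, in an intron of this tyrosine kinase gene, was a strong liver region in both states, at rank 98.8 in fed and 98.3 in fasting liver. It was fasting-only in muscle (rank 87.1), brown adipose (84.5), heart (84.1), kidney (61.3) and white adipose (36.2). At Ip6k2, an inositol phosphate kinase gene, the member lay 459 bp inside the start and was listed in 12 libraries. Its 4 fasting-only tissues were liver, muscle, brown adipose and spleen, and the other 4 tissues listed it in both states. The Josd1 member, in an intron of a deubiquitinase gene, was in 4 sets alone and ranked 89.5 in fasting liver, 75.6 in muscle, 61.8 in brown adipose and 33.9 in lung.

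**Figure D1:**
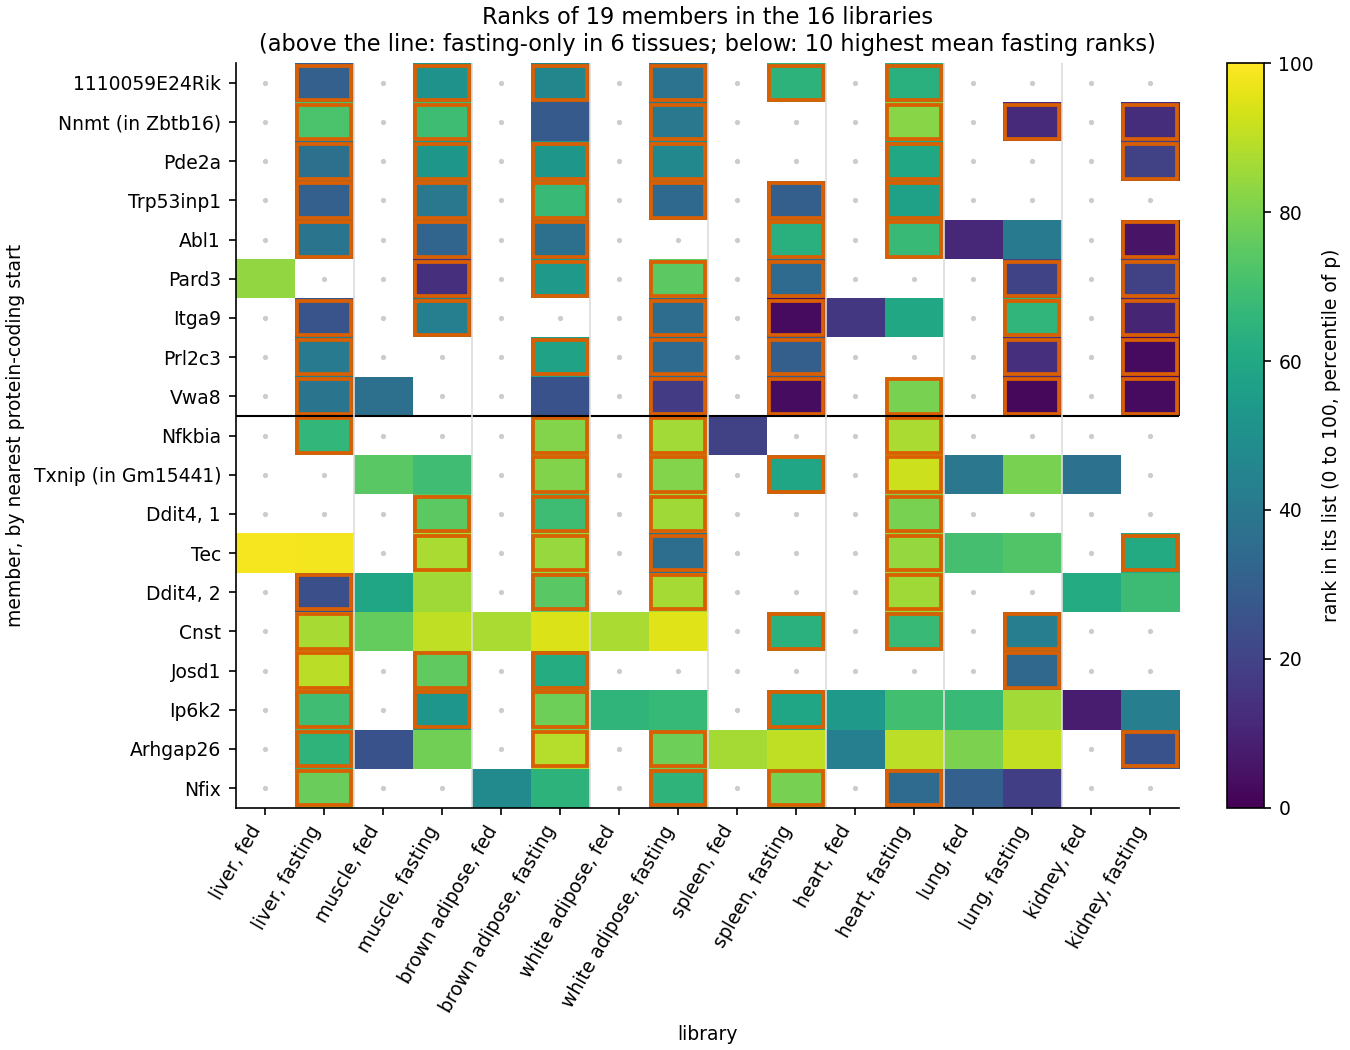
Rank of 19 members (rows, named by the nearest protein-coding start) in the 16 libraries (columns); colour gives the rank from 0 to 100, grey dots mark libraries with no listed peak, and orange frames the fasting libraries in which the member was fasting-only. Above the line are the 9 members that were fasting-only in 6 tissues, and below it the 10 of highest mean fasting rank, of which Nfkbia reached 80.3.

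No merged region was fasting-only in 7 or 8 tissues, 9 were in 6 tissues, 86 in 5 and 780 in 4. The member of 6 tissues with the second highest mean rank, 48.0, lay in an intron of Zbtb16 (chr9:48657856-48658039), which encodes a zinc finger repressor that responds to glucocorticoids. The nearest protein-coding start to it was that of Nnmt, 52797 bp away. It ranked 71.8 in fasting liver, 69.0 in muscle, 40.2 in white adipose, 82.2 in heart, 11.8 in lung and 13.1 in kidney. Fasting brown adipose also listed it at rank 28.4, with a column 9 of 1.70, under the threshold, and no fed library listed it.

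The Trp53inp1 member, 11301 bp downstream of the start of this gene of p53 response and autophagy, had no fed peak in any tissue. It ranked 67.5 in fasting brown adipose, 57.4 in heart, 40.01 in muscle, 34.1 in white adipose, 30.7 in liver and 30.2 in spleen. A member in an intron of Pde2a, a cGMP-stimulated phosphodiesterase gene, likewise had no fed peak, and its 6 fasting ranks ran from 19.5 in kidney to 59.7 in heart. By column 9 it was stronger in kidney, at 4.02 with a fold of 2.55, than in heart, at 3.31 with a fold of 2.02. The remaining 6 were in exons of 1110059E24Rik and Abl1, in introns of Pard3, Itga9 and Vwa8, and between genes near Prl2c3. The Abl1 exon part is annotated as UTR. The Pard3 member was fed-only in liver, where the fed rank was 83.8, and the Vwa8 member was fed-only in muscle, at rank 36.9. None of the 9 lay within 1000 bp of an annotated start.

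Of the 8 gene lists that were counted, the glucocorticoid response genes held the most members. Of the 875 members, 12 (1.37%, exact 95% interval 0.711 to 2.38) had their nearest protein-coding start at 1 of the 20 genes of this list, against 0.263% of all merged regions and 1 of the 771 mirror regions. Intervals of shares are exact binomial ones (Clopper-Pearson). They speak of counting error alone, because regions of 1 locus are not independent. The list was drawn up with earlier results of these data known, so its count is a description. The 12 came from 5 genes, with 5 at Zbtb16, 3 at Fkbp5, 2 at Ddit4 and 1 each at Klf9 and Hif3a. Fkbp5 encodes a co-chaperone that dampens the glucocorticoid receptor, and Klf9 a transcription factor that the receptor induces.

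The strongest Fkbp5 member lay 622 bp upstream of an annotated internal start (chr17:28442060-28442607). It ranked 89.6 in fasting liver, with 95 tags at the summit against 15.6 expected, 51.1 in muscle, 23.4 in spleen and 44.3 in lung, and these 4 tissues had no fed peak. White adipose listed it in both states, at rank 73.0 in fed and 61.2 in fasting, and heart at 77.5 and 61.8, so it was weaker by rank in fasting there. The Fkbp5 member near the end of the gene was fasting-only in 5 tissues, at ranks from 8.0 in lung to 44.4 in spleen. The Klf9 member, in an exon part annotated as UTR, ranked 58.2 in fasting brown adipose, 32.6 in heart, 28.6 in muscle, 26.0 in kidney and 0.3 in spleen, while liver listed it at 81.9 in fed and 85.6 in fasting. The Hif3a member lay in a coding exon and was in 4 fasting sets, at ranks from 13.8 in lung to 54.5 in spleen.

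The excess of fasting regions at these loci was not limited to the members. Within Zbtb16 and 20 kb on each side, the fasting sets of the 8 tissues held 663 regions and the fed sets 514, and fasting held more in 7 tissues. In muscle the numbers were 148 in fasting and 96 in fed, in heart 93 and 62, in liver 76 and 58, and in spleen, the exception, 49 and 52. About Fkbp5 the fasting sets held 434 regions and the fed sets 315, more in fasting in 7 tissues, with 84 against 42 in muscle and 54 against 56 in white adipose. Without muscle, whose fasting library was the deeper one, the numbers were 515 in fasting and 418 in fed about Zbtb16 and 350 and 273 about Fkbp5. Over the whole genome the fasting sets held 1312169 regions and the fed sets 1328438, and fasting held more in 4 of the 8 tissues. Fasting-only calls outnumbered fed-only calls 235 to 79 about Zbtb16 and 145 to 38 about Fkbp5, against 367042 to 388886 in the genome. These loci were picked through their members, so their counts are a description of the loci and no test of them.

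**Figure D2:**
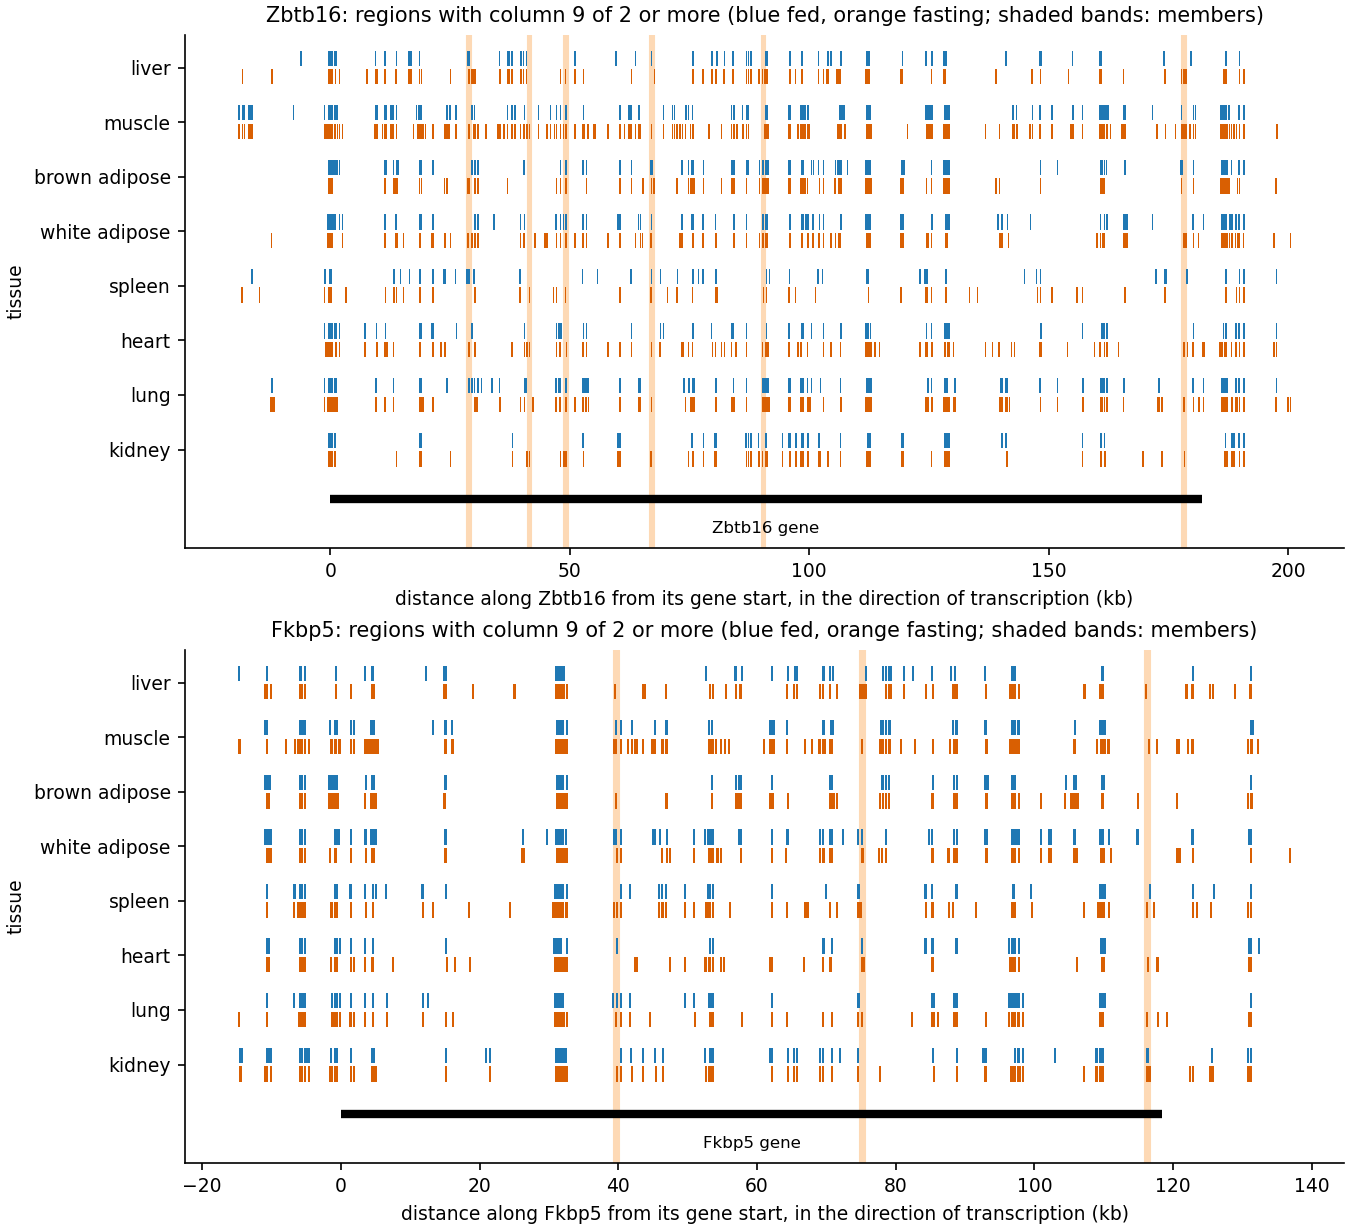
Regions with column 9 of 2 or more along Zbtb16 (top) and Fkbp5 (bottom), by tissue; the x axis is the distance in kb from the gene start in the direction of transcription, blue marks are fed regions, orange marks fasting regions, the black bar is the gene and shaded bands, widened to be visible, are members. Zbtb16 holds 6 members, and muscle shows the denser orange row, with 148 fasting regions against 96 fed.

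The share of the glucocorticoid list stayed above that of all regions under each setting in which the lists were counted. Most of these settings keep a part of the same 875 members, so they repeat the same loci and are no separate support. When a fasting call also had to reach the lowest column 9 of the fed list of its tissue, 9 of 373 members (2.41%) belonged to it, against 1 of 693 mirror regions. When a fed peak within 500 bp also excluded a tissue, 8 of 376 (2.13%) did, against 0 of 389 mirror regions, and with the calls of any 1 tissue left out the share ran from 1.22% (brown adipose left out) to 1.76% (white adipose left out). Of the 95 members of 5 or more tissues it was 3 (3.16%).

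The list of gluconeogenesis, FOXO and CREB genes held 9 members (1.03%, interval 0.471 to 1.94), against 0.287% of all merged regions and 3 mirror regions. They were 3 at Foxo1, 2 at Foxo3 and 2 at Irs2, with 1 each at Insr and Trib1. Foxo1 and Foxo3 encode the fasting-activated forkhead factors, and Insr and Irs2 the insulin receptor and its substrate. The strongest, at Foxo1 but 261052 bp from its start in the noncoding gene Gm30173, ranked 68.5 in fasting liver, 42.8 in muscle, 53.7 in lung and 44.8 in kidney. Brown adipose listed it at 82.9 in fed and 83.0 in fasting. The 2 members inside Foxo1 had mean fasting ranks of 29.5 and 42.8. A Foxo3 intron member was in 4 fasting sets alone, at ranks of 57.7 in muscle, 46.0 in heart, 42.6 in brown adipose and 42.3 in white adipose. This share was less steady, since 2 of 373 members (0.536%) were left when calls had to reach the end of the fed list, and 2 of 454 (0.441%) with the calls of white adipose left out.

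Of 20 circadian clock genes, 5 had a member, and 6 members (0.686%, interval 0.252 to 1.49) were nearest to them, against 0.188% of all merged regions. The mirror had 3 regions in this list (0.389%), a share inside the members' interval. The members lay at Rora (2), Clock, Cry1, Tef and Bhlhe40, with mean fasting ranks from 25.4 at Cry1 to 42.5 at a Rora intron. The Bhlhe40 member was in 4 fasting sets alone and ranked 26.2 in white adipose, 41.5 in spleen, 34.0 in heart and 22.9 in lung. With calls at or above the end of the fed list, 1 of 373 members was left in this list against 3 of 693 mirror regions, and where a fed peak within 500 bp also excluded, 2 of 376 members (0.532%) were left against 3 of 389 mirror regions (0.771%).

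The proteolysis and autophagy list had 3 members (0.343%, interval 0.0708 to 0.999, against 0.0975% of all regions), at Gabarapl1, Bnip3 and Atg5. Its interval held the share of all regions, and no mirror region was in the list. The member in an intron of Gabarapl1, an autophagosome protein gene that FOXO3 induces in muscle, ranked 75.4 in fasting muscle, 60.6 in heart, 22.0 in lung and 55.0 in kidney. Spleen listed it in fed alone, at rank 36.2. In muscle 202 tags stood at its summit against 63.7 expected.

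The lists of PPARA and ketogenesis, of ATF4 and of lipogenesis held 1, 1 and 2 members, at shares of 0.114%, 0.114% and 0.229%, and their intervals held the shares of all regions, 0.105%, 0.109% and 0.142%. The mirror had 2, 1 and 3 regions in these lists (0.259%, 0.130% and 0.389%), so its shares were above those of the members. The PPARA member lay in an exon part annotated as UTR of Pdk4, the kinase that shuts off pyruvate oxidation in fasting. It ranked 75.7 in fasting muscle, with 457 tags against 220.5 expected, 61.6 in spleen, 66.3 in heart and 44.2 in kidney. Brown adipose listed it at 44.6 in fed and 73.1 in fasting, and white adipose in fed alone at 14.5. A lipogenesis member lay in an intron of Insig1, which holds back sterol synthesis, with a mean fasting rank of 49.3. The ATF4 list member was at Vldlr, 40377 bp upstream of its start, with a mean fasting rank of 44.3. No member was nearest to the 20 blood cell genes, which allows a share of up to 0.421% against 0.0955% of all regions.

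**Figure D3:**
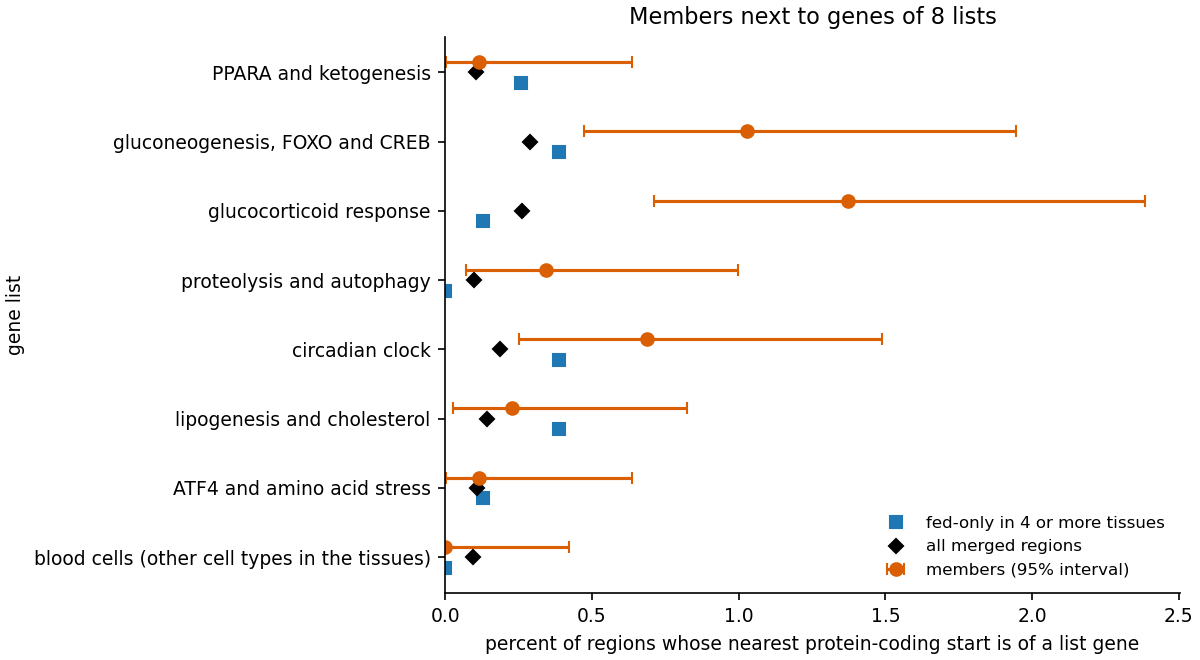
Percent of regions whose nearest protein-coding start belonged to each of 8 gene lists; orange points with bars are the 875 members with exact 95% intervals, blue squares the 771 mirror regions and black diamonds all merged regions. The glucocorticoid list stands at 1.37% of members against 0.263% of all regions.

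The 875 members had 762 nearest protein-coding genes, of which 674 had 1 member and 69 had 2. Klf6, an early-response zinc finger gene, and Zbtb16 led with 5 members each, which were 1.48% of the 337 and 2.78% of the 180 merged regions nearest to them. Mbnl1, a splicing regulator, and Sox5, a transcription factor, had 4 each, which were 1.41% of 283 and 0.849% of 471 merged regions. Of all merged regions 0.115% were members. The 15 genes with 3 members were Arrdc3, Bmper, Fkbp5, Foxo1, Kmt2e, Mrtfb, Scaf8, Sfi1, Shld1, Srek1, Tgfbr2, Ttpal, Vwa8, Zfand3 and Zfp986. Their members made up from 0.890% of the 337 regions nearest to Foxo1 to 7.32% of the 41 nearest to Ttpal. Of these 19 genes, Kmt2e alone also had mirror regions, 2 of them. The genes were picked through their members, and only 771 of the 760105 merged regions were mirror regions, so few could be looked for at any gene. Of the members, 218 (24.9%) lay within 100 kb of another, and the median gap to the nearest was 424118 bp.

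Members at gene starts were a minority. Of all members, 28% (interval 25 to 31.1) had their summit within 3000 bp of an annotated start, against 23.6% of all merged regions, 33.2% of the mirror regions and 39.3% of the regions in 4 or more fasting sets. Regions in 4 to 8 of the 16 sets, a number of sets closer to the members' own, stood at 25.8%, inside the members' interval. The median distance was 7517 bp, against 9837 bp over all merged regions, 8556 bp for regions in 4 to 8 sets and 5581 bp for regions in 4 or more fasting sets. By place, 128 (14.6%) lay within 1000 bp of a start, 63 (7.2%) in other exons, 462 (52.8%) in introns and 222 (25.4%) between genes, where 33.2% of all merged regions lay. Among the 10 strongest within 1000 bp of a protein-coding start were those of Ip6k2, Rilpl2, Lrrc28, Fkbp5 and Mknk1, with mean fasting ranks from 49.6 to 64.6, followed by Shld2, Susd1, Fbxl18, Csgalnact2 and Sfi1, from 46.0 to 49.1. The Mknk1 member, 430 bp inside the start of this kinase gene, ranked 30.7 in fasting liver, 53.9 in muscle, 58.1 in white adipose and 55.6 in heart, and spleen listed it in both states at 83.2 and 83.6.

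In length the members stood between the average region and the more widely shared ones. Their median length was 330 bp, against 170 bp for all merged regions, 305 bp for the mirror, 411 bp for regions in 4 to 8 sets and 656 bp for regions in 4 or more fasting sets. Median GC content about the summit was 51.2% (interval 50.7 to 51.7), against 49.3% over all merged regions, 50.2% in the mirror and in regions of 4 to 8 sets, and 52.7% in regions of 4 or more fasting sets. Repeat-masked bases were at a median of 8.96%, against 9.95% over all merged regions.

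AP-1 and FOXO letters were found more often in the members than in all regions, but at shares near those of regions that were fasting-only in 3 tissues. The window of 100 bases to either side of the strongest summit of a merged region was searched on both strands for 17 motifs, and letters of different motifs may overlap. TGACTCA, the AP-1 site, was in 77 members (8.80%, interval 7.01 to 10.9), against 5.04% of all merged regions, 3.76% of the mirror and 6.44% of the regions in 4 or more fasting sets. It was in 8.87% of the 5467 regions that were fasting-only in 3 tissues, 6.95% of those in 2 and 5.41% of those in 1, and in 6.41% of the regions in 4 to 8 of the 16 sets. TGTTTAC, bound by FOXO and other forkhead factors, was in 42 members (4.80%, interval 3.48 to 6.43), against 2.92% of all merged regions, 1.56% of the mirror and 3.26% of the regions in 4 or more fasting sets. The members' interval held the shares of regions that were fasting-only in 3 tissues, 4.04%, and of regions in 4 to 8 of the 16 sets, 3.62%. With the calls of brown adipose left out, 20 of 576 members (3.47%) held FOXO letters. The CREB site TGACGTCA was rare, in 6 members (0.686%, interval 0.252 to 1.49) against 0.217% of all regions, 0.232% of the regions in 4 to 8 sets, 0.389% of the mirror and 0.635% of the regions in 4 or more fasting sets, and the interval held the last 2 of these. The other 14 sets of letters had intervals that held the share of all regions. Among them was the glucocorticoid receptor core ACANNNTGT, at 8.46% of members (6.70 to 10.5) against 7.58%, and CTCF core letters (AGNGGGCGC), at 0.686% against 0.648% of all regions and 2.59% of the mirror. A match of letters is not a site shown to be bound.

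**Figure D4:**
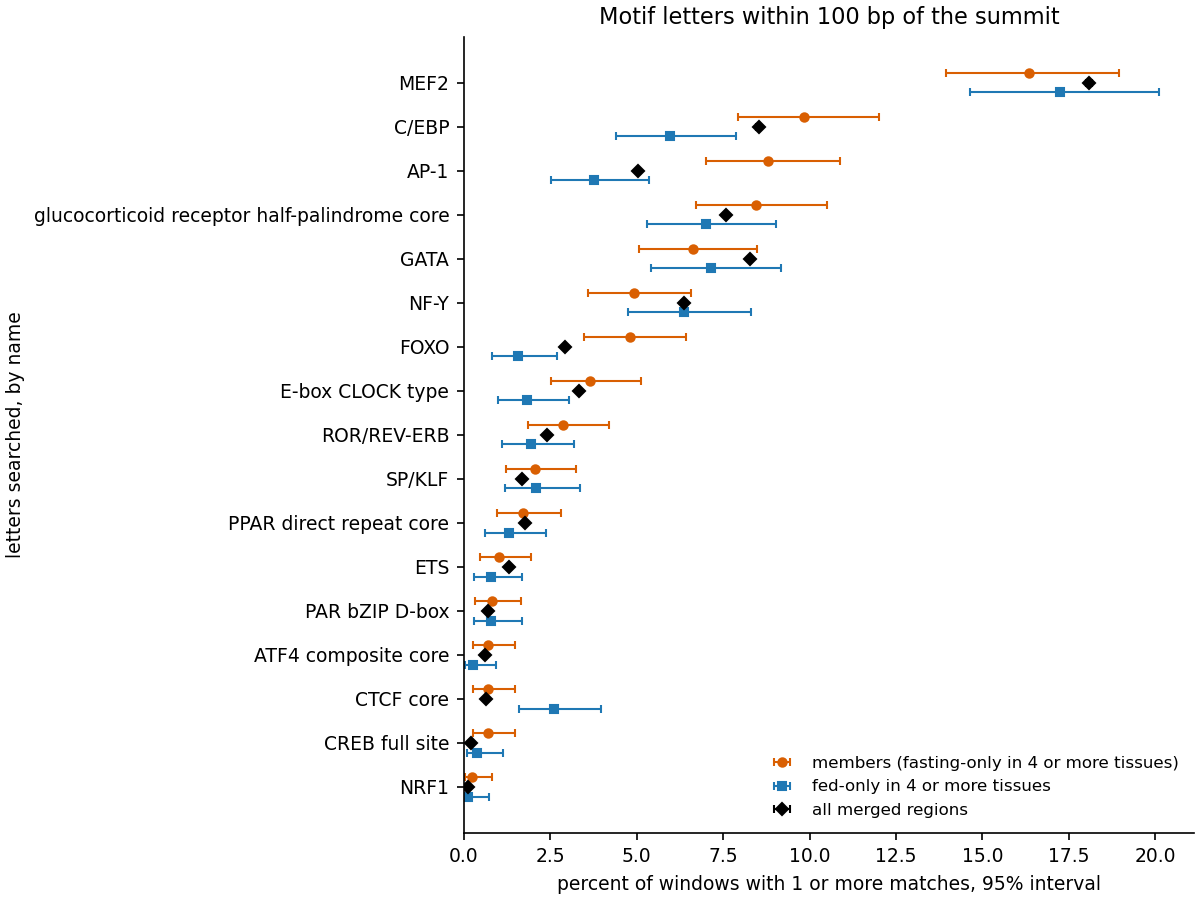
Percent of windows (100 bases to either side of the summit) with 1 or more matches to each of 17 sets of motif letters, with exact 95% intervals; orange circles are the 875 members, blue squares the 771 mirror regions and black diamonds all merged regions. AP-1 letters were in 8.80% of members against 5.04% of all regions, and FOXO letters in 4.80% against 2.92%.

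The AP-1 share differed among members by the tissues that were fasting-only, most for liver and white adipose. The letters were searched at the strongest summit of any library, which was in a fed one for 144 members, and not at the summit of the named tissue. The groups by tissue share members, so these shares are a description. Of the 428 members that were fasting-only in liver 25 (5.84%) held the letters, against 52 (11.6%) of the other 447, and of the 488 in white adipose 51 (10.5%), against 26 (6.72%) of the rest. FOXO letters were in 23 (6.59%) of the 349 brown adipose members, against 3.61% of the rest. They were in 16 (3.21%) of the 499 spleen members, against 6.91% of the rest. These are the tissues of the widest gaps for each motif, and the gaps of the other tissues were smaller. In heart AP-1 letters stood at 9.13% against 8.43% of the rest, in spleen at 8.22% against 9.57%, and in muscle FOXO letters stood at 4.80% in both. With calls at or above the end of the fed list, AP-1 letters stood at 8.58% of 373 members against 3.32% of the mirror, and FOXO letters at 4.56% against 1.73%. Of the 95 members of 5 or more tissues, 10 (10.5%) held AP-1 letters and 2 (2.11%) FOXO letters.

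Muscle took part most often and brown adipose least, an order that changed when each tissue's share was divided by its share of all merged regions. Muscle was fasting-only at 542 members (61.9%), where 5.53% of all merged regions were, spleen at 499 (57.0%, all regions 13.4%), white adipose at 488 (55.8%, all regions 5.18%) and heart at 460 (52.6%, all regions 6.06%). Liver was fasting-only at 428 (48.9%, all regions 7.06%), lung at 422 (48.2%, all regions 4.16%), kidney at 416 (47.5%, all regions 3.9%) and brown adipose at 349 (39.9%, all regions 2.99%). Each member had to be fasting-only in 4 tissues, so these shares lie far above those of all regions by the rule, and they are given as a description. Divided by the tissue's share of all regions, brown adipose came first at 13.3 times, followed by kidney (12.2), lung (11.6), muscle (11.2), white adipose (10.8), heart (8.67) and liver (6.93), and spleen was last at 4.26. This order is that of the shares of all regions from lowest to highest, with muscle and white adipose exchanged. The members' shares spanned only 39.9% to 61.9%, so the quotient mostly restates the share of all regions. The deepest fasting library against its fed partner was muscle, with a genome background of 10.6 tags in fasting and 6.39 in fed, and brown adipose was at the other end, with 6.76 and 12.8; the part of depth in this order was not tested.

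All 70 possible combinations of 4 tissues occurred, with a median of 11.5 members each. Liver, muscle, white adipose and heart formed the largest with 19 members, level with liver, spleen, lung and kidney, and 1 member had liver, brown adipose, heart and kidney. By pairs, muscle and white adipose shared 273 members (31.2%, all merged regions 0.364%), muscle and spleen 265 (30.3%, all 0.405%) and muscle and heart 263 (30.1%, all 0.377%). Brown adipose and kidney shared the fewest, 125 (14.3%, all 0.111%). This pair was also fasting-only together at few of all merged regions, 842 against 2765 for muscle and white adipose, so the order is a description.

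**Figure D5:**
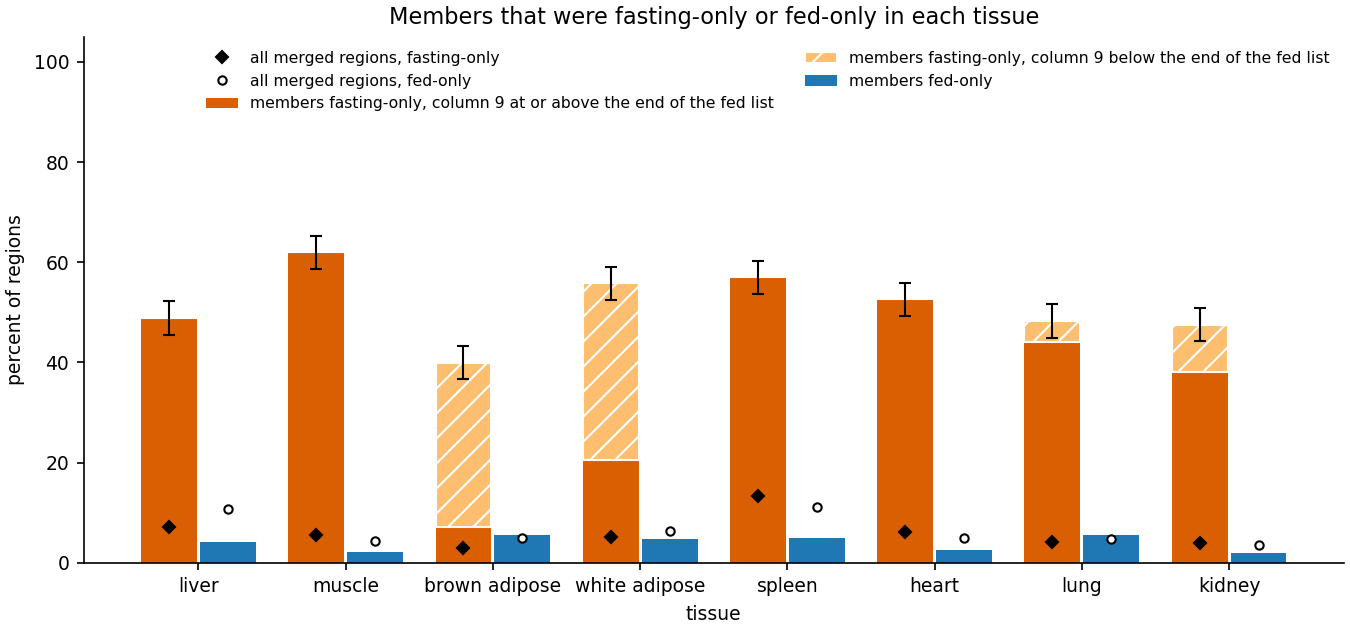
Percent of the 875 members that were fasting-only (orange, bars with exact 95% intervals; the hatched part had a column 9 below the end of the fed list) or fed-only (blue) in each tissue, with the same shares of all merged regions as diamonds and open circles. The hatched part is most of the bar in brown adipose (81.9% of its calls) and white adipose (63.1%).

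Some members went the opposite way in a tissue outside their 4 or more. Of the 875, 629 (71.9%) were fed-only in no tissue, 215 (24.6%) in 1, 29 in 2 and 2 in 3. The 246 that were fed-only somewhere made up 28.1%, below the 44.8% of all merged regions and the 49.5% of regions in 4 to 8 sets, but a member had at most 4 tissues left in which it could be so. Regions in the fasting set of 4 or more tissues stood at 30.9%, and regions that were fasting-only in 1 tissue at 19.8%. By tissue, brown adipose was fed-only at 49 members (5.6%, all regions 4.89%), lung at 48 (5.49%, all regions 4.84%), spleen at 44 (5.03%, all regions 11.2%) and white adipose at 42 (4.8%, all regions 6.45%). Liver was fed-only at 36 (4.11%, all regions 10.8%), heart at 23 (2.63%, all regions 5.02%), muscle at 19 (2.17%, all regions 4.45%) and kidney at 18 (2.06%, all regions 3.56%). These shares are of all 875 members. A tissue that was fasting-only at a member could not be fed-only there, so the rule lowers them, most where a tissue took part often.

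A comparison less bound by the rule is the behaviour of a tissue whose own calls were not used to choose the regions. It is not independent of the rule, because the merged regions came from all 16 libraries and the tissues of a state shared their animals. It is given as a description. For each tissue in turn, regions that were fasting-only in 4 or more of the other 7 were compared with regions that were fed-only in 4 or more of the other 7. In kidney, 52 of the 511 regions of the first kind were fasting-only (10.2%, all merged regions 3.90%) and 18 fed-only (3.52%, all 3.56%). Of the 480 of the second kind 35 (7.29%) and 46 (9.58%) were. In brown adipose the numbers were 50 and 49 of 576, against 8 and 56 of 343. These 2 tissues had the largest differences. In spleen 64 of 440 regions of the first kind were fasting-only (14.5%), near the 13.4% of all merged regions. The second kind was also fasting-only more often than fed-only in liver (50 and 45 of 467), muscle (57 and 40 of 461) and heart (38 and 36 of 474). The log2 of fasting-only over fed-only numbers, with 0.5 added to each count, was higher in the first kind in 8 of 8 tissues, by 1.33 ± 0.74 on average (SD over 8 tissues). At a column 9 of 6 or more, where 5 members are left, the average turned to -0.59. The difference ran from 0.45 in liver and 0.60 in spleen through 0.96 in lung, 1.16 in white adipose, 1.29 in muscle, 1.49 in heart and 1.89 in kidney to 2.76 in brown adipose. The 8 values overlap in their regions and their animals, so they carry no p-value.

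Most calls behind the members were weak. The 3604 fasting-only calls had a median column 9 of 3.79, 1082 of them (30.02%) were under 3 and 717 (19.9%) were 6 or more, with a highest of 110.4 at Tec in muscle. At the summit a median of 23 tags stood against 7.14 expected, and the median fold enrichment was 2.83 with a highest of 12.1. The median rank was 38.5 and the 5th to 95th percentiles ran from 4.94 to 72.9. Over members, the mean fasting rank had a median of 38.4, from 8.01 to 80.3, and 125 members reached 50. Just inside the rule were Spata20 and Dctn2, which entered with a lowest needed column 9 of 2.00012 and 2.00508, and just outside were Slc23a3 and Mras, at 1.99749 and 1.99663.

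Members were not closed in fed mice as a whole. A fed peak was listed in some tissue for all but 204 (23.3%), a member was in a median of 6 of the 16 sets and at most 12, and 202 were in 4 sets alone. For 144 members (16.5%) the highest rank in any library was in a fed one. A fed peak of the same tissue lay within 500 bp of the merged region, without touching it, for 1204 of the 3604 calls (33.4%).

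The end of the fed lists bears on every count above. The lists were kept to a fixed length, and in fed mice those of kidney, lung, white adipose and brown adipose ended at a column 9 of 3.20, 3.26, 4.22 and 5.26, so a fed peak weaker than that could not be listed. Of the fasting-only calls 713 (19.8%) were below that end, namely 308 of the 488 in white adipose, 286 of the 349 in brown adipose, 82 of the 416 in kidney and 37 of the 422 in lung. With calls at or above that end 373 members were left, fewer than the 693 regions of the mirror under the same condition, so the larger number of members than mirror regions does not hold there.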

How the data were processed

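The 16 peak lists of ATAC-seq, 1 pooled library per tissue and state, were analysed, and reads were not used here. Per the labels and the study's methods, the authors aligned reads to GRCm38 with Bowtie2, removed duplicates and called peaks with MACS2, and took q under 0.01 as the bound of significance. The deposited lists also hold weaker peaks, and their names state a looser p threshold and a fixed number of rows kept. The deposited fold enrichment is a ratio of observed to expected tags at a peak's summit, each with 1 added. The deposited -log10 p and -log10 q come from a Poisson test that the authors ran library by library. None is scaled between libraries, so values were ranked within a list. Column 9 is -log10 q, and 2 corresponds to q of 0.01.

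Rows with the same coordinates were taken as 1 region. Tag numbers, which the files do not list, were solved from fold and p to whole numbers within 0.001, and the lowest common expected number gives the background, which is proportional to depth (2.80 to 12.8 tags). Peak coordinates are on GRCm38, counted from 1. Starts and exons were those of GENCODE vM21, with 132629 starts and 21911 protein-coding genes, and the release used in the study was not used here. Starts are those of all annotated transcripts, so the nearest start of a gene may lie inside it. A region's place was called at its strongest summit.

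The members, gene lists and motifs were chosen with earlier results of these data known. Named in the text are the members of 6 or more tissues, the 10 of highest mean fasting rank, the 10 of highest rank within 1000 bp of a protein-coding start, members nearest to a list gene (values for up to 5 a list) and genes nearest to 3 or more members. A list member is not reported here. Tissue labels were checked against 8 lists of 5 marker genes. All 40 had a peak near a start in their own tissue, and 7 lists ranked highest there, white adipose being the exception (91.1, against 93.7 in brown adipose). pandas 2.3.3, scipy 1.17.1, numpy 2.4.6 and matplotlib 3.10.9 under Python 3.11.15 were used, and the steps were tested on simulated data. No test was run on the members' own lists, and the alternatives are given at the end.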

Additional observations from a re-analysis of the deposited data

Results flagged for a closer look

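In 246 of the 875 members at least 1 tissue moved against the others, being fed-only where 4 or more tissues were fasting-only. This was 28.1% of the members, against 44.8% of all merged regions that were fed-only in 1 or more tissues. The rule leaves a member at most 4 tissues in which to be fed-only, and it lowers the members' share by itself. The contrast with all merged regions is therefore a description only. Regions in the fasting set of 4 or more tissues stood at 30.9%, and regions that were fasting-only in 1 tissue at 19.8%. With 1 library per tissue and state the difference between tissues at these members was not tested.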

How the results depend on the processing

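The number of members, 875, fell to 5 at a column 9 of 6 or more (mirror 21), to 373 with fasting calls at or above the end of the fed list (mirror 693), to 376 where a fed peak within 500 bp also excluded (mirror 389) and to 95 in 5 or more tissues (mirror 71). Leaving out 1 tissue gave 403 (without muscle) to 576 (without brown adipose) members. It was 1259 where only fed regions of the set excluded, 898 with merging at 50 bp and 865 on autosomes. The 5 at 6 or more were at Tec, Foxo1, Nfkbia, Ddit4 and Tnrc6b.

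The share within 3000 bp of a start, 28%, became 20% at a column 9 of 6 or more, 24.2% with the 500 bp exclusion, 14.6% for a 1000 bp window and 20.1% for protein-coding starts. Median GC, 51.2%, became 48.8% at 6 or more and 50.2% (without spleen) to 51.7% with 1 tissue left out. The median mean fasting rank, 38.4, became 77.3 at 6 or more, 41.2 at the end of the fed list, 39.6 where only fed regions of the set excluded and 40.8 in 5 or more tissues, and leaving out 1 tissue gave 36.4 to 40.8. The held-out log2 difference, 1.33, turned to -0.59 at 6 or more, where 5 members are left and the 0.5 added to each count weighs heavily. Its range over the other alternatives was 1.15 to 1.88.

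Chosen after seeing the data, merging touching regions gave 874 members, and ending both lists of a tissue at the same column 9 gave 604 members with a median rank of 42.1 and 1997 mirror regions. These 604 overlapped only 397 (45.4%) of the 875 members, so they are in part other regions. The counts by gene list and motif letters under other settings, given above, were also added after seeing the data. The cause of these shifts was not tested. No paired analysis was possible because each group is 1 library and the groups share a single replicate number. Fed and fasting libraries pair by tissue, but the tissues came from the same pooled animals, so differences over tissues carry no p. Depth limits the shallow libraries most, with a background of 2.80 tags in fed liver.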

Other observations

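Members were unevenly spread over chromosomes. Chromosome 1 held 39 (4.46%), where 7.72% of all merged regions lie, and chromosome 12 held 23 (2.63%, all regions 4.32%), while chromosome 4 held 70 (8%, all regions 6.12%) and chromosome 13 held 54 (6.17%, all regions 4.83%). Chromosome X held 9 (1.03%, all regions 1.29%). Within Klf6 and 20 kb on each side the fasting sets held 102 regions and the fed sets 98, with more in fasting in 4 tissues, and fasting-only calls stood at 28 against 20 fed-only calls. About Foxo1 the numbers of regions were 375 and 307, more in fasting in 6 tissues, of which muscle gave 80 and 30. Without muscle they were 295 and 277. About Txnip they were 186 and 170.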
